A study of Ciona robusta with 3 samples.

Results

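Foxf was followed in single cells of the Ciona robusta B7.5 lineage across embryonic time, across cell clusters and across CRISPR conditions. It is listed as feature KY2019:KY.Chr3.1005 of the KY2019 gene models (named Foxf1-KY.Chr3.1005 by the study), was picked by this identifier, and is 1 of 17822 genes in the tables. Cells came from embryos carrying green fluorescent reporters under the Mesp enhancer, which is active in the B7.5 founder cells. After methanol fixation the cells were stained with a fluorescent antibody against the reporter protein and sorted on that stain. A pair of short barcodes in the 3′ untranslated region of the reporter marked each sample of a pool. The time series was 1 library that pooled 10 time points from 5 to 14 hours post-fertilisation (hpf). In the perturbation experiment, 2 repeat libraries each pooled 4 conditions labelled 12 hpf, namely Foxf CRISPR, Gata4/5/6 CRISPR, Foxtun4 CRISPR and control CRISPR. All 4 conditions carried nuclear Cas9 under the Mesp enhancer, and the control received guides against Tyrosinase. Eggs of several animals were pooled and split before electroporation, which is mosaic, so that a cell with a barcode need not carry every plasmid and a cell without one can belong to the lineage. A time point is therefore 1 embryo batch with no replicate, and intervals on its values cover counting error only. Which barcode pair stands for which time point or condition was read from the colour legends of the study, not from the count tables.

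Foxf encodes a forkhead transcription factor. In the Ciona embryo, each B7.5 founder cell divides unequally into a trunk ventral cell (TVC), a multipotent cardiopharyngeal progenitor that migrates into the trunk and later gives rise to heart and pharyngeal muscles, and an anterior tail muscle cell (ATM). FGF-MAPK signalling through Ets1/2 turns Foxf on in the TVC and not in the ATM, and Foxf then acts on genes for cell migration and on cardiac regulators, among them a GATA factor, an Nkx2-5 homologue and Hand factors.

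The time series held 40785980 UMIs (unique molecular identifiers, each a counted RNA molecule) in 2569 cell barcodes, and the repeats held 5382449 UMIs in 231 and 15156285 UMIs in 638. Foxf accounted for 4836 UMIs in 1121 cells (43.6%) of the time series, 751 UMIs in 81 cells (35.1%) of repeat 1 and 1634 UMIs in 228 cells (35.7%) of repeat 2. After a filter on genes per cell, 2517 time series cells remained, of which 1353 had a complete barcode pair of a single time point. Clusters built without Foxf among their genes were called TVC-like or ATM-like from 10 markers each. TVC-like clusters summed to 19122 CPM (UMIs per 1000000 UMIs) of the TVC markers and ATM-like clusters to 40446 CPM of the ATM markers. The 2 repeats shared 7 cell barcodes, and neither shared any with the time series. A shared barcode fell on 1 assigned TVC-like cell, of Gata4/5/6 CRISPR in repeat 1, with 43629 UMIs in all and 23 of Foxf.

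Outside ATM-like clusters Foxf was low at 6 hpf, reached its highest level at 10 hpf and was low again by 13 hpf. No Foxf UMI was found in the 8 cells of 5 hpf, which allows a level of up to 21.9 CPM. All 8 lay in sparsely barcoded cluster 14, so no direction is drawn from 5 hpf. At 6 hpf, 37 cells held 9 Foxf UMIs, or 11.52 CPM (95% Poisson interval 5.3 to 21.9). At 7 hpf the level was 72.9 CPM (64.7 to 81.8) in 236 cells. The 102 cells of 8 hpf held 287 CPM (261 to 314), and the 39 cells of 9 hpf held 368 CPM (319 to 423). The highest level, 465 CPM (444 to 486), was that of 308 cells at 10 hpf. Levels then fell at each hour, to 237 CPM (216 to 260) in 139 cells at 11 hpf and 91.5 CPM (77.2 to 108) in 113 cells at 12 hpf. The 90 cells of 13 hpf held 56.5 CPM (43.6 to 72.0), and the 13 cells of 14 hpf held 3 UMIs, too few cells for a direction. The median depth of these cells lay between 11788 and 23190 UMIs at each hour.

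**Figure D1:**
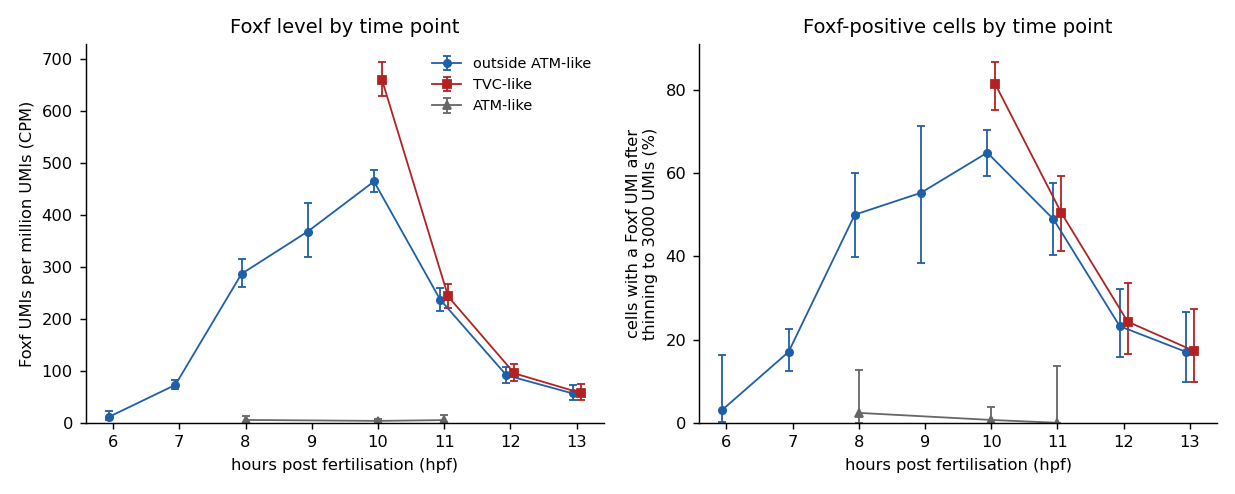
Foxf level in CPM (left) and percent of cells with a Foxf UMI after thinning each cell to 3000 UMIs (right) against hours post-fertilisation, for cells outside ATM-like clusters, for TVC-like cells among them and for ATM-like cells, with 95% counting intervals, where a group has at least 20 cells. The level outside ATM-like clusters climbs to 465 CPM at 10 hpf and falls to 56.5 CPM at 13 hpf, while ATM-like cells stay below 6 CPM at each plotted time.

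Between neighbouring hours, the level rose 6.32-fold (3.29 to 14.0) from 6 to 7 hpf and 3.93-fold (3.39 to 4.58) from 7 to 8 hpf, and these intervals overlap. Of the 9 UMIs at 6 hpf 6 came from a single cell, and where 1 barcode of a pair was accepted the levels at 6, 7 and 8 hpf were 28.5, 78.5 and 227 CPM. The next 2 steps were small, 1.284-fold (1.08 to 1.52) and 1.26-fold (1.09 to 1.47). On the way down the level at 11 hpf was 0.510 of that at 10 hpf (0.459 to 0.566), the level at 12 hpf was 0.386 of that at 11 hpf (0.318 to 0.467) and the level at 13 hpf was 0.617 of that at 12 hpf (0.453 to 0.833). In order of level the time points ran 10, 9, 8, 11, 12, 7 and 13 hpf. Within that order, the intervals of 12 and 7 hpf overlapped, as did those of 7 and 13 hpf, and those of the other neighbours did not. The order of 8 and 11 hpf was not firm, with facing bounds of 261 and 260 CPM. The 227 CPM of 8 hpf with 1 barcode accepted lay within the 225 to 242 CPM of 11 hpf over the alternatives.

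The share of cells with any Foxf UMI did not follow the level exactly. From 6 to 10 hpf it was 10.8%, 47.9%, 71.6%, 76.9% and 84.1%, and from 11 to 13 hpf 86.3%, 58.4% and 47.8%. The shares of 10 and 11 hpf were thus close, although the level of 11 hpf was 0.510 of that of 10 hpf. The mix of cells differed, with 188 of 308 TVC-like at 10 hpf and 129 of 139 at 11 hpf. Among TVC-like cells alone the share fell from 98.4% to 88.4%, and after thinning to 3000 UMIs from 81.4% to 50.4%. When every cell outside ATM-like clusters was thinned to 3000 UMIs the shares from 7 to 10 hpf were 17.0%, 50%, 55.3% and 64.9%, and those from 11 to 13 hpf were 48.9%, 23.2% and 17.0%. From 8 to 12 hpf this order matched that of the levels, while 7 and 13 hpf could not be told apart. Thinning to 5000 UMIs instead put 9 hpf (78.9%) above 10 hpf (75.9%). Single cells showed where level and share parted. At 10 hpf the median cell held 5 Foxf UMIs, 52 of 308 cells held more than 10 and the highest held 27. At 11 hpf the median was 3, only 5 of 139 cells held more than 10 and 30 held exactly 1. The 8 hpf cells were more divided, with 29 of 102 at 0, 32 between 6 and 10 and 10 above 10. At 13 hpf 47 of 90 cells were at 0, 32 held 1 and the highest held 5.

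**Figure D2:**
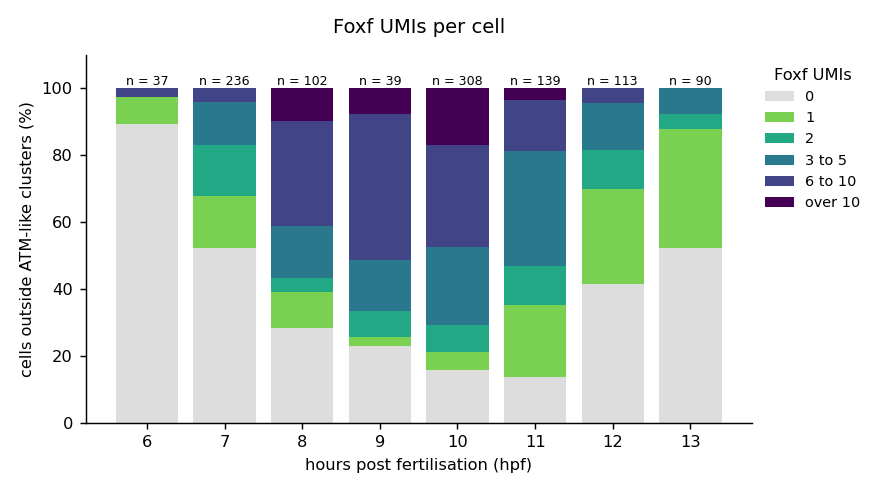
Percent of cells outside ATM-like clusters by number of Foxf UMIs per cell, at each hour post-fertilisation. Cells with more than 10 Foxf UMIs first appear at 8 hpf (10 of 102 cells), are most numerous at 10 hpf (52 of 308) and are not seen at 12 or 13 hpf.

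Cells of the same hour that fell in different clusters carried different levels. At 8 hpf, 52 cells in cluster 7, which holds markers of both TVC and ATM and was left unnamed, had 516 CPM, whereas 32 cells in cluster 3, unnamed and richer in founder and ATM markers, had 71.7 CPM. Cluster 3 held most cells of 7 hpf, 195 cells at 70.4 CPM, and a smaller group of 14 founder-like cells in cluster 20 stood at 144 CPM. The same founder-like cluster held 1 Foxf UMI in 28 cells of 6 hpf. At 10 hpf the 178 cells of TVC-like cluster 4 reached 676 CPM while 66 cells of cluster 10, unnamed, had 196 CPM. At 12 hpf, 22 cells of TVC-like cluster 15 had 204 CPM and 86 cells of TVC-like cluster 17 had 71.1 CPM. Levels in cluster 15 at 11 and 12 hpf, 239 and 204 CPM, were therefore closer to each other than the averages of those hours, 237 and 91.5 CPM. Within TVC-like clusters alone the decline was 661 CPM (628 to 695) in 188 cells at 10 hpf, 243 CPM (221 to 267) in 129 cells at 11 hpf, 95.2 CPM (80.0 to 112) in 108 cells at 12 hpf and 57.4 CPM in 83 cells at 13 hpf. At 10 hpf, 98.4% of TVC-like cells held a Foxf UMI and the median cell held 8.

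In ATM-like cells Foxf was scarce. The 268 ATM-like cells with a time point held 21 Foxf UMIs, or 3.53 CPM (2.19 to 5.40), in 9 cells (3.36%, exact 95% interval 1.5 to 6.3), against 65.4% of the 1085 other cells. Depth did not favour the latter, since the median ATM-like cell held 22826 UMIs and the median other cell 13410. By hour, ATM-like cells had 5.48 CPM at 8 hpf (44 cells), 3.64 CPM at 10 hpf (152 cells) and 5.16 CPM at 11 hpf (25 cells), and a single 10 hpf cell held 8 of the 12 UMIs of that hour. The level outside ATM-like clusters was 52.4-fold higher at 8 hpf (22.3 to 162), 127-fold at 10 hpf (72.8 to 247) and 45.9-fold at 11 hpf (15.6 to 224).

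Among 1002 genes with a marked change over 6 to 13 hpf in the same cells, 12 had a course with a correlation to that of Foxf above 0.9 on the log2(CPM + 10) scale. The median correlation over these 1002 genes was 0.118 and the 5th to 95th percentiles spanned −0.626 to 0.736, over 8 time points that share library and cells. The closest was KY.Chr1.1059, for which the sources give no gene name, at 0.981. It was followed by Foxh1-KY.Chr9.672, named for a forkhead cofactor of Nodal-Smad signalling, at 0.979 and Chrnb2-KY.Chr7.967, named for a nicotinic acetylcholine receptor subunit, at 0.972. Ror2-KY.Chr8.672, named for a Wnt receptor tyrosine kinase, and Gjc1-KY.Chr11.1238, named for a gap junction protein, both stood at 0.968. These roles are those of the vertebrate namesakes.

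The cardiac regulators followed other courses. Hand-r (Hand2-KY.Chr1.2070), a basic helix-loop-helix factor of the TVCs, came nearest at 0.79. Gata4/5/6 (Gata5-KY.Chr6.625), a zinc finger regulator of cardiac fate, correlated at 0.44 with Foxf. Its level in the hours from 8 to 11 hpf was 4.4, 61.1, 128 and 198 CPM, the last being its peak, an hour after that of Foxf. These are averages over all cells outside ATM-like clusters, and the TVC-like part of those cells was larger at 11 hpf. Among TVC-like cells alone Gata4/5/6 hardly differed between the 2 hours, with 200 CPM in the earlier and 212 CPM in the later. Their counting intervals overlapped, so the later peak was not resolved within TVC-like cells. Nkx2-5-KY.Chr8.909, the homeodomain factor Nk4, also peaked at 11 hpf, with 578 CPM, and correlated at 0.35. Lef/Tcf (Tcf7l2-KY.Chr6.60), the nuclear effector of Wnt signalling, peaked at 12 hpf.

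Foxf was not limited to cells with a complete barcode pair. The 1353 assigned cells had 160.2 CPM of Foxf and 53.1% of them held a UMI. The 806 cells in which barcodes were seen but no pair was complete had 79.8 CPM (74.8 to 85.1) and 34.4%, and the 221 cells with no barcode UMI had 76.3 CPM and 30.8%. The 137 cells with barcodes of more than 1 sample had 74.9 CPM and 35.0%. After thinning to 3000 UMIs the shares were 31.6% in assigned cells, 17.8% without a complete pair and 14.8% without any barcode, all above the 0.8% of ATM-like cells.

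These cells lay almost wholly in clusters with few barcodes. Of 23 clusters, 13 had a time point for under 50% of their cells and held 1256 cells, 49.9% of those kept, with 30.1% of the Foxf UMIs and 38.6% of the Foxf-positive cells. Within these sparsely barcoded clusters the level differed little with the barcodes of a cell. Assigned cells had 77.8 CPM (129 cells), cells without a complete pair 83.2 CPM (788 cells) and cells with no barcode UMI 76.8 CPM (219 cells). In the well-barcoded clusters only 18 cells with barcodes lacked a complete pair. They held 6 Foxf UMIs, or 10.9 CPM, all in 1 cell, at a median depth of 34097.5 UMIs per cell. Another 2 cells there had no barcode UMI and held no Foxf UMI. Some of the assigned cells in sparse clusters were counted in the time course above. They numbered 117 outside ATM-like clusters and had 90.4 CPM over all hours, including 125 CPM in 43 cells at 10 hpf.

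Of the 13 sparse clusters, 7 had over 20 CPM of Foxf and 5 had under 5 CPM. Cluster 1 had the highest level, 175 CPM, with a Foxf UMI in 78.4% of 185 cells (48.6% after thinning), although only 4.86% of its cells were assigned. It was led by Matn4-KY.Chr14.958, named for an extracellular matrix matrilin, at 11781 CPM against 721.6 CPM in the other cells, and by the unnamed KY.Chr8.1390 (532.5 against 23.99 CPM) and KY.Chr1.2317 (886.9 against 46.6 CPM). Cluster 9 followed with 146 CPM and 49.4% of 164 cells (28.7% after thinning). Its leading genes were Tmprss11a-KY.Chr7.711, named for a membrane serine protease, at 4382 against 325.9 CPM, KY.Chr4.4 at 1732 against 129.2 CPM and KY.Chr5.898 at 1351 against 102.0 CPM. Cluster 2 had 133 CPM and 55.1% of 107 cells (21.2% after thinning, below cluster 9), and was led by KY.Chr11.377 (318 against 3.4 CPM, in 16.8% of its cells), KY.Chr2.766 (196 against 2.7 CPM) and Sp9-KY.Chr13.409, named for a zinc finger factor (401 against 24.6 CPM). More of its cells were assigned, 25.2% against 6.71% in cluster 9.

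The epidermal marker Epi1-KY.Chr1.2380 stood at 10766 CPM in cluster 1, 10754 CPM in cluster 9, 7455 CPM in cluster 2 and 10955 CPM in cluster 11, against 27.0 CPM in TVC-like and 58.3 CPM in ATM-like clusters. With a single epidermal marker these clusters were left without a cell type name. The paper reads its own clusters without barcodes as contaminating cells from outside the B7.5 lineage, and names Foxf-positive trunk epidermis among them. That reading was not tested here. Summed TVC markers were 1148 CPM in cluster 1, 1301 CPM in cluster 9 and 2477 CPM in cluster 2, well below the 19122 CPM of TVC-like clusters, whereas Foxf in cluster 1 was at about the level of cluster 10 in the lineage (179 CPM). Summed ATM markers were 205, 152 and 3850 CPM in clusters 1, 9 and 2. Whether lineage cells supplied part of the Foxf of cluster 2 was not tested. Hand-r (Hand2) was at 6.1, 4.8 and 128 CPM in clusters 1, 9 and 2 against 1583 CPM in TVC-like clusters, and Gata4/5/6 (Gata5) was at 1.9, 1.6 and 11.55 CPM against 168 CPM. Not every progenitor gene was low there. Hes.a (Hes1-KY.Chr1.28), a transcriptional repressor commonly downstream of Notch, stood at 569, 982 and 660 CPM against 396 CPM in TVC-like clusters. Foxf-positive cells of cluster 1 had a median of 12274 UMIs and Foxf-negative cells 6766, and in cluster 2 the medians were 20825 and 7085.

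**Figure D3:**
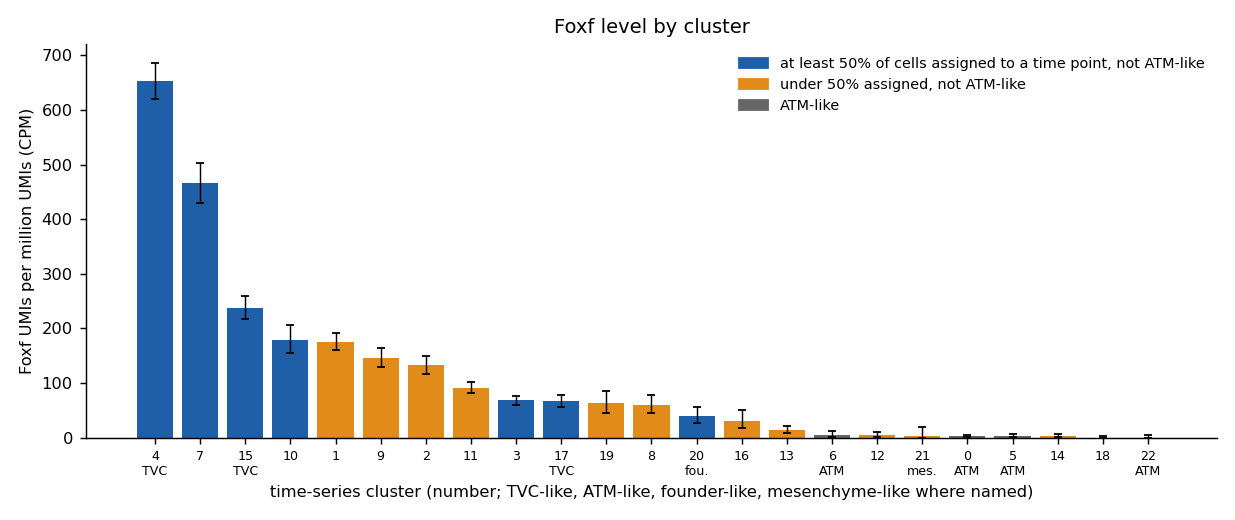
Foxf level in CPM in each cluster of the time series, with 95% Poisson intervals, ordered by level and coloured by whether at least 50% of cells were assigned, with ATM-like clusters in grey. TVC-like cluster 4 leads with 653 CPM, and sparsely barcoded clusters 1, 9 and 2 follow the 4 highest well-barcoded clusters with 175, 146 and 133 CPM.

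Within single hours, cells rich in Foxf were also rich in some progenitor genes. Correlations are of log10(1 + UMIs) across cells outside ATM-like clusters after thinning to 3000 UMIs, and cells share a library, so they are given as descriptions. At 8 hpf (102 cells, 2069 genes), the median gene correlated at 0.013 with Foxf and the 5th to 95th percentiles spanned −0.165 to 0.204. Hand-r (Hand2) was the highest at 0.540, and was found in 84.3% of Foxf-positive cells but 35.3% of Foxf-negative ones. Unc5c-KY.Chr9.912, named for a netrin receptor of guided cell migration, stood at 0.319. Ets1/2.b (Ets1-KY.Chr10.606), the effector of FGF-MAPK signalling, was at −0.061.

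At 10 hpf (302 cells, 2149 genes, median 0.028, percentiles −0.109 to 0.179), Trabd2b-KY.Chr5.930, named for a membrane metalloprotease that inactivates Wnt ligands, led at 0.534. The receptor gene Lgr6-KY.Chr11.958 was at 0.431, Hand-r (Hand2) at 0.410 and the mRNA decay factor gene Zfp36l1-KY.Chr4.13 at 0.40. Among genes of cell behaviour, the collagen receptor gene Ddr2-KY.Chr9.1025 was at 0.388, the DEP domain gene Depdc1b-KY.Chr2.2230 at 0.338, the protocadherin gene Pcdh18-KY.Chr9.393 at 0.288 and Unc5c at 0.266. Gata4/5/6 (Gata5) was at 0.241, with UMIs in 34.7% of Foxf-positive and 13.2% of Foxf-negative cells, and Nkx2-5 at 0.167. The muscle genes Meox2-KY.Chr8.1018 and Smyd1-KY.Chr6.594 were on the negative side, at −0.157 and −0.150. In the 264 cells of well-barcoded clusters Trabd2b was at 0.495, Hand-r (Hand2) at 0.287 and Depdc1b at 0.290, while Pcdh18 (0.145) and Nkx2-5 (0.0917) fell below the 95th percentile there (0.155) and Smyd1 was at −0.239.

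Within TVC-like cells the pattern was different. Among the 188 TVC-like cells of 10 hpf alone (2282 genes, median 0.003, percentiles −0.122 to 0.128), Hand-r (Hand2) was at −0.017, Nkx2-5 at −0.092 and Gata4/5/6 (Gata5) at 0.054. Trabd2b still led with 0.321. The next were Ctcf-KY.Chr9.22 (chromatin insulator protein) at 0.236, Nek2-KY.Chr11.1155 (centrosomal kinase) at 0.227, Rpl38-KY.Chr8.245 (ribosomal protein) at 0.221 and Sec62-KY.Chr1.2071 (protein translocation) at 0.216. Depdc1b was at 0.161, Bmp2-KY.Chr4.449 at 0.147 and Ddr2 at 0.136. The lowest were Col19a1-KY.Chr1.896 (a collagen) at −0.246, Sapcd2-KY.Chr9.328 at −0.244 and Pafah1b2-KY.Chr4.360 at −0.216.

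At 11 hpf (137 cells, 2438 genes, percentiles −0.160 to 0.143) Hand-r (Hand2) was at 0.003 after thinning, and Gata4/5/6 (Gata5) stood at −0.068. The highest was Calr-KY.Chr5.584, named for the chaperone calreticulin, at 0.372, a value that was −0.031 without thinning. Among the 127 TVC-like cells of 11 hpf Hes.a (Hes1) was at −0.233 and Lef/Tcf (Tcf7l2) at −0.214, 2 regulators whose own levels are late. Without thinning, Hand-r (Hand2) correlated at 0.835, 0.669 and 0.312 at 8, 10 and 11 hpf.

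The CRISPR libraries addressed how Foxf RNA responded to loss of Foxf itself and of 2 other factors. Libraries hold the 3′ ends of transcripts, so they count Foxf RNA and do not read the edited site. Foxf RNA was lower in TVC-like cells of Foxf CRISPR than of control CRISPR in both repeats. Control cells had 573 CPM (33 cells) in repeat 1 and 447 CPM (67 cells) in repeat 2. Foxf CRISPR cells had 60.0 CPM (13 cells, 11 UMIs) and 164 CPM (41 cells, 116 UMIs). The groups did not overlap. The Foxf CRISPR repeats differed from each other by a larger factor than those of control, though by less in CPM. In edgeR's quasi-likelihood test on UMIs summed per repeat and condition, Foxf was 3.89-fold lower than in control (log2 fold change −1.96, SE 0.284, adjusted p = 0.00249, n = 2 repeats each). By this rule 182 of 6478 genes tested were called (2.81%, with 2.04% lower and 0.772% higher), and Foxf ranked 33rd by p.

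The decrease was partial and uneven among cells. In Foxf CRISPR, 24 of 54 TVC-like cells (44.4%) still held a Foxf UMI against 95% in control, and the median cell held 0 against 7. After thinning the shares were 19.6% and 61.6%. Yet 4 Foxf CRISPR cells held more than 10 Foxf UMIs, up to 19. Foxf CRISPR cells were mostly in TVC-like cluster 4 of these libraries (43 of 54), and control cells mostly in clusters 5 and 1 (56 and 35 of 100). In cluster 4 Foxf CRISPR cells had 70.6 and 138 CPM in the 2 repeats and the 9 control cells 215 and 233 CPM. In cluster 5 the repeats went opposite ways. Foxf CRISPR was at 37.3 CPM (3 cells) against 738 CPM in repeat 1 and at 603 CPM (4 cells) against 579 CPM in repeat 2. In cluster 1 only 4 Foxf CRISPR cells were found, with 2 Foxf UMIs. TVC markers moved with the condition, and summed to 15797 and 14916 CPM in the Foxf CRISPR sums against 21971 and 22318 CPM in control. ATM markers summed to 6965 and 4717 CPM against 4702 and 5390 CPM, and Epi1 was between 6.9 and 38.2 CPM in all 8 sums. The part of these values in the result was not tested.

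**Figure D4:**
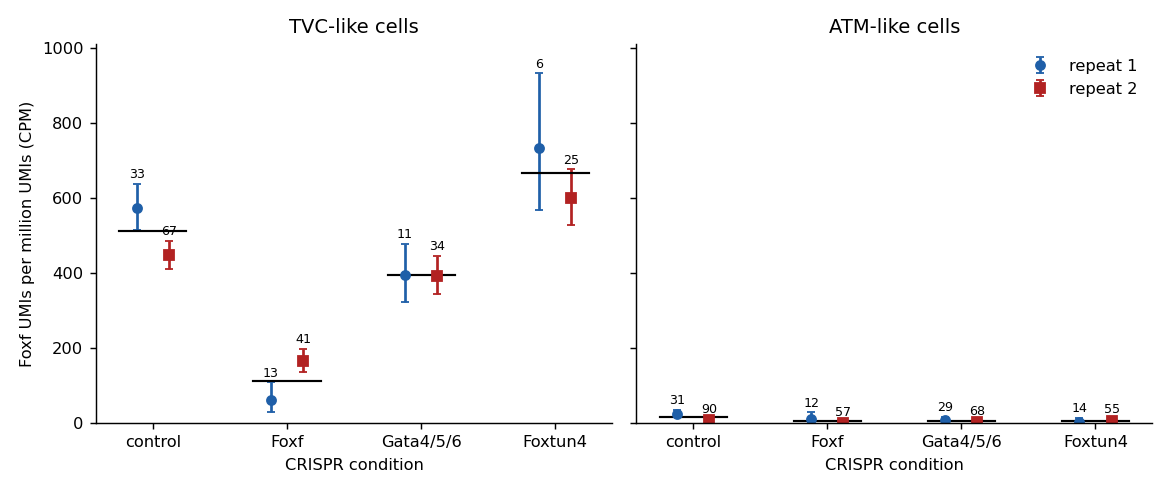
Foxf level in CPM per repeat and condition in TVC-like cells (left) and ATM-like cells (right), with 95% Poisson intervals, the mean of the 2 repeats as a line and the number of cells above each point. In TVC-like cells both Foxf CRISPR repeats (60.0 and 164 CPM) lie below all the others, which start at 392 CPM.

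Foxf was not called in the other conditions, which share the control cells with the comparison above. In Gata4/5/6 CRISPR, TVC-like cells had 394 CPM (11 cells) and 392 CPM (34 cells), both below the control repeats, and repeat 1 also held fewer TVC markers (16574 CPM) and more ATM markers (10974 CPM) than control. The difference was −0.29 on the log2 scale (SE 0.255, adjusted p = 0.9998 by edgeR, 0.0617% of genes called). In Foxtun4 CRISPR they had 734 CPM (6 cells) and 599 CPM (25 cells), both above control, with a difference of 0.36 (SE 0.261, adjusted p = 0.9999 by edgeR, 0.0154% called). Shares of cells with a Foxf UMI were 97.8% and 93.5%. Set directly against Gata4/5/6 CRISPR, Foxf CRISPR had the lower Foxf level by 1.67 on the log2 scale (SE 0.292, adjusted p = 0.00891 by edgeR, 2.27% called). Targeted genes were lower in their own conditions. Gata5-KY.Chr6.625 was at 88 and 69 CPM in Gata4/5/6 CRISPR against 241 and 235 CPM in control, and the Foxtun4 gene, Foxl1-KY.Chr5.382, was at 110 and 74 CPM in Foxtun4 CRISPR against 337 and 281 CPM.

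The control cells carried the 12 hpf label, but their Foxf levels of 573 and 447 CPM were above the 95.2 CPM of TVC-like cells of 12 hpf in the time series and nearer to those of 10 and 11 hpf (661 and 243 CPM). The 2 experiments were separate libraries, so library and experiment cannot be told apart and the difference was not tested.

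In ATM-like cells Foxf was low in each condition, at 22.7 and 7.22 CPM in control, 10.8 and 0.58 in Foxf CRISPR, 7.970 and 3.06 in Gata4/5/6 CRISPR and 2.24 and 5.92 in Foxtun4 CRISPR. The repeats overlapped between control and Foxf CRISPR, and Foxf was not called (log2 fold change −2.34, SE 0.950, adjusted p = 0.999 by edgeR). A single cluster of 63 ATM-like cells carried most of these UMIs, at 52.9 CPM. Without it the remaining 301 ATM-like cells held 9 Foxf UMIs, or 0.891 CPM, and Foxf no longer passed the filter for a test.

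Of 24 genes placed around Foxf in the cardiopharyngeal network, 21 could be tested in TVC-like cells, and 7 of these were lower in Foxf CRISPR than in control against 2.04% of all tested genes. The list was drawn up with earlier results of these data in view, and 4 of its genes (Hand2, Nkx2-5, Unc5c and Pcdh18) were also markers by which TVC-like clusters were named. Its muscle genes were all markers by which ATM-like clusters were named. Its median log2 fold change was −0.50 and that of all genes tested 0.012. By edgeR 0 of the 21 were called higher, although 2 had an unadjusted p under 0.05 in that direction.

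Genes of migration, adhesion and signalling held most of the calls, with 5 of 7 lower. Fzd4-KY.Chr6.487, named for a Wnt receptor, was at 380 and 417 CPM in control and 76 and 73 CPM in Foxf CRISPR (log2 fold change −2.39, adjusted p = 0.000398 by edgeR). The small GTPase gene Rhof-KY.Chr1.2141 was at 71 and 85 CPM against 0 and 8 CPM (−3.51, SE 0.582, adjusted p = 0.00504 by edgeR). The 2 groups of repeats did not overlap for either gene, nor for Unc5c and Depdc1b, which were not called. The Foxf CRISPR values of Rhof lay at the floor, so their spread cannot be judged. Leaving out 1 repeat at a time gave log2 fold changes of Rhof from −8.26 to −3.18. Pcdh18 was at 1677 and 1646 CPM against 644 and 541 CPM (−1.46) and Ddr2 at 678 and 596 CPM against 164 and 212 CPM (−1.68). The ligand gene Bmp2 was at 199.9 and 221 CPM against 98 and 55 CPM (−1.61). Unc5c (−0.34, adjusted p = 0.560 by edgeR) and Depdc1b (−0.50, adjusted p = 0.286 by edgeR) were not called.

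Among the cardiac regulators 2 of 7 were lower. Gata4/5/6 (Gata5) was at 66 and 59 CPM in Foxf CRISPR (log2 fold change −1.93, SE 0.227, adjusted p = 0.000894 by edgeR), both below the 88 and 69 CPM of Gata4/5/6 CRISPR, a difference that was not tested. Nkx2-5 was at 404 and 387 CPM against 784 and 698 CPM in control (−0.87, SE 0.183, adjusted p = 0.0214 by edgeR), a call that was lost with DESeq2 and on leaving out any 1 of the 4 control and Foxf CRISPR repeats. The Foxtun4 gene (Foxl1) was at 164 and 199 CPM (−0.69, adjusted p = 0.0970 by edgeR) and Hand (Hand1-KY.Chr14.359) had a log2 fold change of −1.23 (adjusted p = 0.106 by edgeR), neither past the threshold. Hand-r (Hand2) stood in the other direction, at 3805 and 4117 CPM against 2682 and 2431 CPM (0.67, adjusted p = 0.0561 by edgeR), and so did Hes.a (Hes1), at 431 and 428 CPM against 136 and 267 CPM (1.09, adjusted p = 0.148 by edgeR). For both genes the 2 groups of repeats did not overlap, but neither did those of Ets1/2.b (Ets1), Lef/Tcf (Tcf7l2) and Unc5c, which were not called. The share of all tested genes without overlap was not counted, so nothing is drawn from it. Without the cell with a shared barcode Hand-r was called higher. Neither of the 2 upstream genes tested was called in this contrast, Ets1/2.b (Ets1) being at −0.23 (adjusted p = 0.735 by edgeR). None of the 5 muscle genes was called either. These genes were also markers by which ATM-like clusters were named, so cells rich in them would have left the TVC-like class. Their SEs ran from 0.742 (Myl1) to 1.44 (Myf5). The contrast therefore cannot say whether muscle genes change in Foxf CRISPR.

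**Figure D5:**
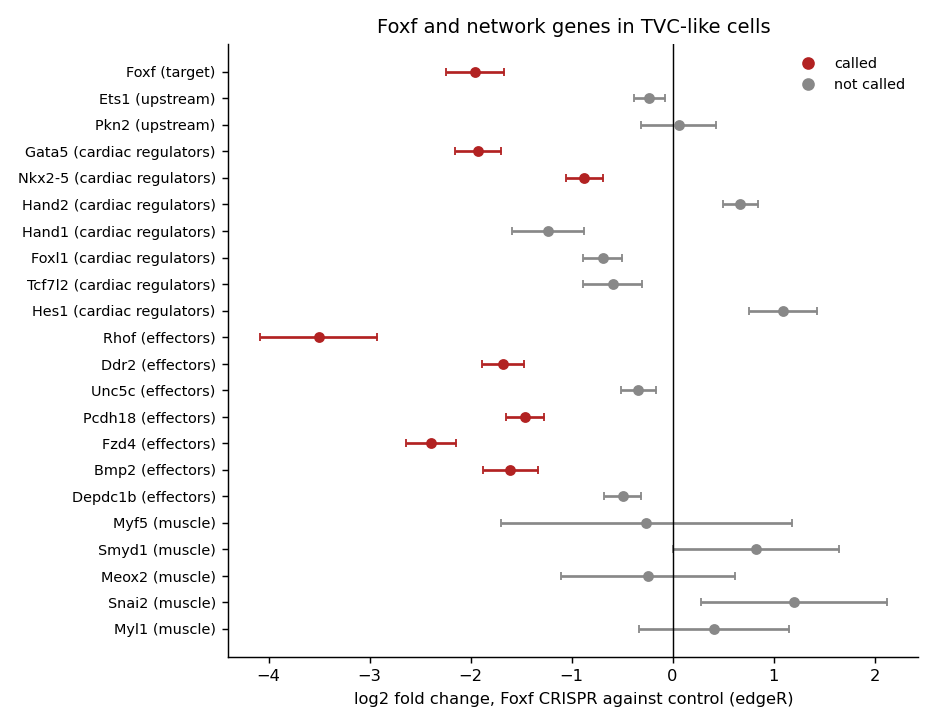
Log2 fold change in Foxf CRISPR against control CRISPR in TVC-like cells for Foxf and the 21 network genes tested, with bars of 1 SE from edgeR, grouped by role and coloured by call. The 7 called genes all lie below 0, from −0.87 for Nkx2-5 to −3.51 for Rhof.

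These counts lean on few cells. Without Foxf CRISPR repeat 2, the larger of the 2 Foxf CRISPR sums, 3 of the network genes were called lower (Ddr2, Pcdh18 and Fzd4) and 31 genes in all, while Foxf itself remained called in each fit that left out a repeat.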

How the data were processed

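Single-cell RNA was measured by droplet 3′ sequencing in 3 libraries. The authors made the UMI counts with Cell Ranger 3.0.1 against KY2019 gene models with 21 reporter barcodes added as artificial genes, and counts were used as deposited. Gene names came from the supplementary tables of the study. Time series cells outside the 1st to 99th percentile of genes per cell were left out. Assignment of a cell asked for 1 UMI or more of each barcode in a pair and for 75% or more of its pair UMIs in that pair. Doublets were treated only by leaving out cells with mixed pairs. Cells were clustered in scanpy 1.11.5 (Leiden, resolution 1, 2000 variable genes without Foxf, Gata4/5/6, Foxtun4, Depdc1b or barcodes, 30 components, 15 neighbours). A class needed at least 3 markers among the genes of a cluster and a clear lead over other classes.

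CPM is the Foxf share of summed UMIs. Its 95% intervals are exact Poisson, those of shares exact Clopper-Pearson, and both cover counting error only. Thinning drew 3000 UMIs per cell, without shallower cells. CRISPR tests used edgeR 4.0.16 (quasi-likelihood, TMM, filterByExpr, 8 sums of at least 5 cells, 91315 to 1265063 UMIs per TVC-like sum), with a call at Benjamini-Hochberg adjusted p under 0.05 over all genes tested and an absolute log2 fold change over 0.5. The 2 repeats are separate libraries of pooled embryos, and the sources do not say whether their embryos came from separate electroporations. P-values rest on the spread between these 2 libraries within conditions. That spread was estimated in 1 fit over all 4 conditions, with information shared across genes, so it is not that of the 2 compared conditions alone. If both came from 1 pool of embryos, that spread would not cover differences between embryo batches. Sums of a repeat share a library, and the correlation across genes of their deviations from the group means ran from −0.0621 to 0.157 (TVC-like) and from −0.0139 to 0.0955 (ATM-like). DESeq2 1.42.0 was an alternative. The count model was tested on simulated data. Named genes were Foxf, the network and marker lists, the 5 genes closest to Foxf over time, the 5 highest and 3 lowest correlations in TVC-like cells at 10 hpf, with the highest at 8, 10 and 11 hpf added after their values were seen, and the 3 leading genes of the 3 sparse clusters highest in Foxf. The gene and the lists were chosen with earlier results of these data known. Whole-embryo data and a separate barcode count were not used here.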

Additional observations from a re-analysis of the deposited data

How the results depend on the processing

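In each alternative the Foxf level outside ATM-like clusters was highest at 10 hpf. Accepting 1 barcode of a pair gave 28.5, 227, 283 and 343 CPM at 6, 8, 9 and 10 hpf. Asking for 95% of pair UMIs gave 4.14 CPM at 6 hpf, and asking for 10 pair UMIs gave 321 at 8 hpf and 495 at 10 hpf. Resolution 0.5 gave 520.5 CPM at 10 hpf, and well-barcoded clusters alone gave 326 at 8 hpf and 531 at 10 hpf.

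Foxf stayed lower in Foxf CRISPR than in control in all alternatives, and leaving out 1 repeat at a time gave log2 fold changes from −3.004 to −1.63. With the replicate block it was −1.94 (adjusted p = 0.00476 by edgeR), 181 genes were called, and pairing changed no call on Foxf or the network. The Foxtun4 difference in ATM-like cells turned from −1.35 to 0.0747 at resolution 2, never past the threshold. Genes called went from 182 to 97 with DESeq2, 343 without the filter on low counts, and 31 to 265 with 1 repeat left out. Network genes called lower ranged from 3 to 8 and called higher from 0 to 1 with 1 repeat left out. Called higher were also 3 without the filter (Hand2, Hes1 and Smyd1) and 1 (Hand2) without shared cell barcodes, a setting added after seeing the data. The causes were not tested. With 1 repeat left out, a lone sum is assumed to vary like the other groups. Few cells limit the 5, 6 and 14 hpf values and the smallest CRISPR sums.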

Other observations

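The CRISPR libraries also held Foxf in cells of sparsely barcoded clusters, which were left without a name. A sparsely barcoded cluster of 55 cells, 1.8% of them assigned, had 264 CPM of Foxf with a UMI in 72.7% of cells. Its profile was about as close to time series cluster 1 (r = 0.916 across genes, which are not replicates) as to cluster 2 (r = 0.908). Of the leading genes of cluster 1, Matn4 was at 5719 and 6884 CPM in the 2 repeats. KY.Chr8.1390 had no UMI and KY.Chr1.2317 was at 0 and 16.2 CPM. Sp9, a leading gene of cluster 2, was at 1281 and 562 CPM. No counterpart is therefore named. Another, of 69 cells, 36.2% of them assigned, had 169 CPM with a UMI in 52.2% of cells. Of its 339 Foxf UMIs 101 came from a single unassigned cell of repeat 1 that held 330968 UMIs in all. A cluster of 18 unassigned cells had 300.2 CPM in repeat 1 and 105.5 CPM in repeat 2, from 28 UMIs in 5 cells, 14 of them in 1 cell, and its profile was closest to time series cluster 8 (r = 0.932).

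Across 976 genes, the profile of control CRISPR TVC-like cells correlated with that of time series TVC-like cells at 0.914, 0.911, 0.867 and 0.848 for 10, 11, 12 and 13 hpf in repeat 1, and at 0.911, 0.912, 0.871 and 0.848 in repeat 2. By these correlations both repeats lay nearer to 10 and 11 hpf than to the 12 hpf of their label, as did their Foxf level. Single genes went either way. Lef/Tcf (Tcf7l2), at 88 and 157 CPM, was nearer to 10 hpf (89 CPM) than to 12 hpf (513 CPM). Depdc1b, at 603 and 753 CPM, was nearer to 12 hpf (522 CPM) than to 10 hpf (356 CPM).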
